A study of Mus musculus with 12 samples.

Results

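Sarcomere and Z-disc genes are described here as a set of 33 genes that encode the contractile filaments of heart muscle, the disc that anchors them and the proteins that hold them in register. They were found by matching the platform's gene symbols to that list, with the probe set of highest mean taken for each gene. All 33 were present among the 19505 genes with a symbol, each with 1 probe set.

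Myocardium of 12 mice was profiled on single-colour arrays, with 4 mice and 4 arrays in each of 3 groups. DM_AngIV mice were injected for 5 days with streptozotocin, which destroys the beta cells of the pancreas, and then had a high dose of angiotensin IV, a peptide cut from angiotensin II, infused at 2.88 mg/kg/day between week 8 and week 24. DM mice received streptozotocin in the same way and no peptide, and the diabetic mice of both groups had fasting glucose of at least 16.7 mM when they were chosen. NC mice received the vehicle for 5 days. All hearts are labelled 6 months, while the sources used here name neither strain nor sex. The diabetes is toxin-induced loss of insulin. Non-diabetic mice given angiotensin IV were not analysed here, so DM_AngIV against NC holds both the diabetes and the peptide.

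In each sarcomere, thin filaments of actin, tropomyosin and the troponins slide along thick filaments of myosin, whose heads carry the light chains. Thin filaments end at the Z-disc, where alpha-actinin crosslinks them, and titin spans from there to the M-band at the centre of the thick filament. Phosphorylation of the ventricular regulatory light chain and of myosin-binding protein C tunes the force of the heart. Fetal and skeletal isoforms of these proteins are low in the adult ventricle of the mouse.

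Values are log2 expression as deposited, so a difference of 1 is a doubling. Of the 33 genes, 32 were above background on all 12 arrays, where background is the 95th percentile of reporter control probe sets, 4.96. Only Tnni1 was above it on 0 arrays. The mean over all arrays was above 11 for 9 members in a table whose highest value was 12.53, and whether signals at that level are compressed was not tested. The spread within groups was narrow, with a median residual SD of 0.117 over the members and of 0.192 over all genes. Probes cannot be inspected here, so the values of near-identical copies such as Actc1 and the skeletal actin gene Acta1 may share signal.

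Arrays differed in transcripts of atrial muscle. Myl7, the atrial regulatory light chain and no member of the set, lay between 3.53 and 3.94 on the 4 DM_AngIV arrays. It was at 8.86, 9.68, 3.97 and 8.10 in DM replicates 1 to 4 and at 10.08, 4.28, 7.90 and 3.72 in NC replicates 1 to 4. Results on called members are therefore also given without the 5 arrays with Myl7 above background, which leaves 4 DM_AngIV, 1 DM and 2 NC arrays, and there the lone DM array is assumed to vary like the others.

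DM_AngIV hearts differed from NC hearts in 4 of the 33 members, where 1.02% of all genes passed the same test (limma, with p adjusted over all genes by Benjamini-Hochberg and a threshold of 0.05). Myl1 fell, as did 0.287% of all genes, while Mylk3, Myom2 and Tcap rose, as did 0.728%. The other 29 members did not pass in any of the 3 comparisons. Over the set, 23 of 33 differences were positive, against 48.5% of all genes, with a median of 0.057 beside −0.0070 over all genes. Over the 9753 genes whose mean level was not below the median, the median difference was 0.019. Single arrays shifted much of the set: 28, 18, 21 and 22 members were above their own mean over all arrays in DM_AngIV replicates 1 to 4, 11, 15, 9 and 14 in DM replicates 1 to 4, and 5, 14, 15 and 24 in NC replicates 1 to 4. The mean level of the set was 9.67 to 9.74 in DM_AngIV, 9.58 to 9.64 in DM and 9.53 to 9.72 in NC, so DM_AngIV and NC overlapped, with NC replicate 4 in the range of DM_AngIV. The part of these array shifts in the count of positive differences was not tested. Ranges of DM_AngIV and NC arrays did not overlap in 9 members, 7 higher and 2 lower, against 9.83% of all genes, 5.63% higher and 4.2% lower.

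**Figure D1:**
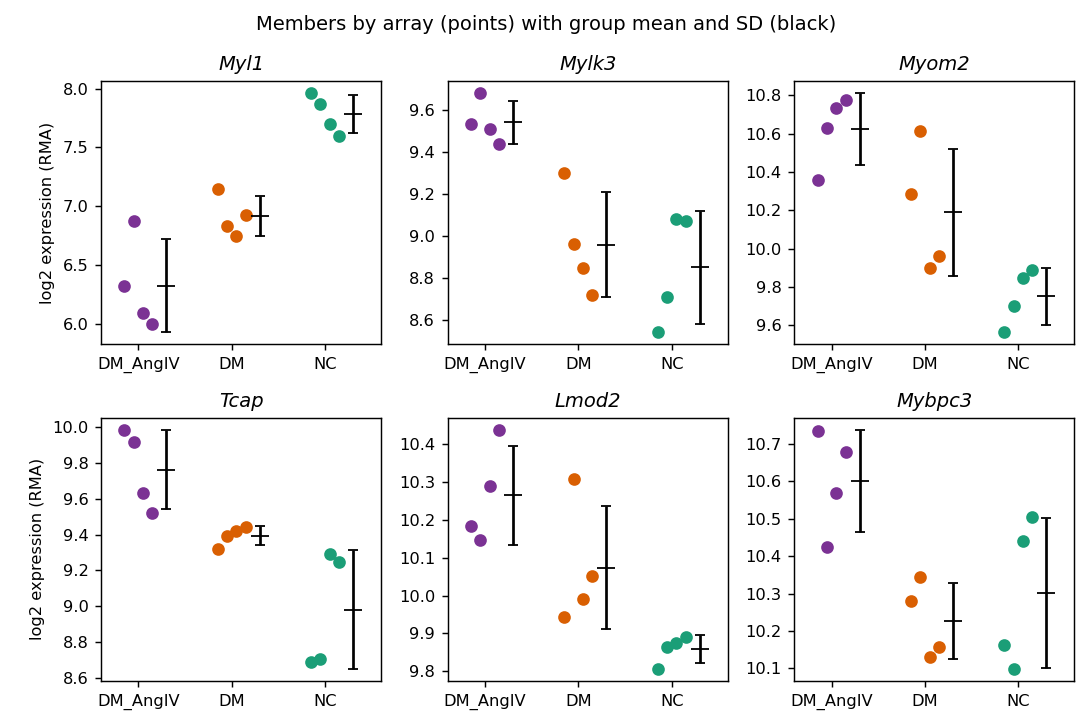
Log2 expression (vertical axis, RMA values, scale set per gene and not starting at 0) of 6 members on each array of the DM_AngIV, DM and NC groups (points, n = 4 each), with the group mean and SD in black. Myl1 lies lowest in DM_AngIV, at 6.00 to 6.88, and highest in NC, at 7.60 to 7.96, while Mylk3, Myom2 and Tcap lie higher on every DM_AngIV array than on any NC array.

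Myl1 encodes the alkali light chain of fast skeletal muscle myosin. Its level was 6.32, 6.88, 6.09 and 6.00 in DM_AngIV replicates 1 to 4, 7.15, 6.83, 6.75 and 6.92 in DM replicates 1 to 4, and 7.96, 7.87, 7.70 and 7.60 in NC replicates 1 to 4. NC arrays were all above the arrays of both diabetic groups, and among the diabetic arrays only DM_AngIV replicate 2 reached the range of DM. The mean was 6.32 ± 0.39 in DM_AngIV and 7.78 ± 0.16 in NC (SD, n = 4 each), a fall of 2.75-fold, with a log2 difference of −1.46 ± 0.17 (SE; limma adjusted p = 0.00130). It was the largest difference in either direction among the 33 members.

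In DM, Myl1 averaged 6.91 ± 0.17 (SD, n = 4), which was −0.87 ± 0.17 from NC (SE; limma adjusted p = 0.101). The ranges of DM and NC did not overlap, but the gene did not pass over all genes. DM_AngIV stood −0.59 ± 0.17 from DM (SE; limma adjusted p = 0.511), with overlapping ranges. The comparisons share arrays, so the 3 values are not independent of each other. Myl1 in DM against NC passed without genes below the median level (limma adjusted p = 0.0496), with a trended robust prior (0.0274) and without DM_AngIV replicate 2 (0.0275), which is in neither group and enters the shared spread.

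The atrial signal was unevenly spread over the groups in which Myl1 was compared. None of the 4 DM_AngIV arrays had Myl7 above background. DM_AngIV replicates 1, 3 and 4 held the lowest Myl1 levels, while replicate 2, at 6.88, lay in the range of DM. In DM, Myl1 was 7.15, 6.83 and 6.92 in replicates 1, 2 and 4, where Myl7 was above background, and lowest, at 6.75, in replicate 3, where it was not. In NC it was 7.96 and 7.70 in replicates 1 and 3, where Myl7 was above background, and 7.87 and 7.60 in replicates 2 and 4, where it was not, so these overlapped. Most other genes of skeletal muscle were dim. Of 14 skeletal muscle markers, 11 were not above background on any array, with the fast myosin Myh4 at 3.74 to 4.55, the fast regulatory light chain Mylpf at 2.65 to 3.32 and the skeletal calcium pump Atp2a1 at 3.19 to 4.11. The exception above background on all arrays was Acta1, at 7.01 to 8.17 in DM_AngIV, 7.57 to 8.50 in DM and 7.92 to 9.04 in NC.

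Tnnt1 and Tnni1, the isoforms of slow skeletal or fetal muscle in the set, did not pass in any comparison. Tnnt1, the slow skeletal troponin T, lay at 6.11 ± 0.21 in DM_AngIV, 6.24 ± 0.13 in DM and 6.36 ± 0.25 in NC (SD, n = 4 each). Its difference between DM_AngIV and NC was −0.25 ± 0.14 (SE; limma adjusted p = 0.439), and its ranges overlapped in all 3 comparisons. Tnni1, the troponin I of slow skeletal and fetal heart muscle, was not above background in any group, at 2.75 to 3.55. Tnni3, the adult cardiac troponin I, had means of 11.45, 11.44 and 11.44 in DM_AngIV, DM and NC, and the difference between DM_AngIV and NC had a 95% interval from −0.18 to 0.20.

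Mylk3 encodes the cardiac myosin light chain kinase, which phosphorylates the ventricular regulatory light chain. It stood at 9.53, 9.68, 9.51 and 9.44 in DM_AngIV replicates 1 to 4, at 9.30, 8.96, 8.85 and 8.72 in DM replicates 1 to 4, and at 8.54, 8.71, 9.08 and 9.07 in NC replicates 1 to 4. All 4 DM_AngIV arrays were above all 8 other arrays, while DM and NC overlapped. The gene rose 1.61-fold in DM_AngIV over NC, by 0.69 ± 0.15 on the log2 scale (SE; limma adjusted p = 0.0333). DM_AngIV against DM gave 0.58 ± 0.15 (limma adjusted p = 0.469), and DM against NC gave 0.11 ± 0.15 (0.890).

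Of the called members, Myl1 and Mylk3 had RefSeq promoter windows, which are shown here, while Myom2 and Tcap had none. Each window runs from 250 bases before to 50 after a transcript start in GRCm38.p6, on the minus strand. Capitals mark motif matches on either strand. The Myl1 window is chr1:66945007-66945306, and the Mylk3 windows at its 2 starts are chr8:85365275-85365574 and chr8:85380992-85381291.
Myl1: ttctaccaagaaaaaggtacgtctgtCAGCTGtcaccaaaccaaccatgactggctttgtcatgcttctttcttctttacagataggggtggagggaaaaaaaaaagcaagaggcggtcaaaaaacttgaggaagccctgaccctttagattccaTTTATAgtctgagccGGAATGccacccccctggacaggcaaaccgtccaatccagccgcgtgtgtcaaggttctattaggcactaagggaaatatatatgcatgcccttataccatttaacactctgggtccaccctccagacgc
Mylk3, first window: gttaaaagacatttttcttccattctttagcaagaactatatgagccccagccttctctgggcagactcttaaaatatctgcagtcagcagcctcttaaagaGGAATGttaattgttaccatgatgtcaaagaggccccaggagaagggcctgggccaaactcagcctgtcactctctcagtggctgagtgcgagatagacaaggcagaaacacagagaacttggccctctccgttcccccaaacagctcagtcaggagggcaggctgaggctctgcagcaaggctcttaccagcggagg
Mylk3, second window: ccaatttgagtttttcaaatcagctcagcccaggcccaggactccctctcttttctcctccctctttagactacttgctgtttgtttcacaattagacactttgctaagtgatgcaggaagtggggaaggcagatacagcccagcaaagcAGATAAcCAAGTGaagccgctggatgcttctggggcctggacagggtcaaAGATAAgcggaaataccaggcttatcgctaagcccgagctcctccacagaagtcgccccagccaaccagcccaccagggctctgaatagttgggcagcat

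The Myl1 window held 1 E-box (CANNTG) at −224, 1 TATAAA match at −95 and 1 MCAT element (CATTCC, a binding sequence of TEAD factors) at −80, counted from the transcript start to the first base of the match. For Mylk3, the first window held 1 MCAT match at −148. The second held 1 E-box at −93 and AGATAA, a form of the GATA sequence, at −100 and −50. No match overlapped another. An E-box stood in 72.3% of all 32851 windows in the table, MCAT in 14.7%, TATAAA in 13.6% and AGATAA in 11.2%.

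Over the set, 28 members had a window, 39 windows in all, and 13 of them held MCAT. The CArG box, bound by serum response factor, was found in 6 of the 39, those of Actc1, Ldb3, Myl3, Myom1 and Nebl, against 1.63% of all windows. The MEF2 site was found in 3, those of Mybpc3, Myoz2 and Ttn, against 3.19%. GTAAACA, a forkhead sequence that FoxO factors bind, was in 0 of the 39 and in 3.65% of all windows. These letters were searched in windows of 300 bases, and windows of a gene can overlap.

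Among the other thick filament genes, Mybpc3, which encodes cardiac myosin-binding protein C, stood at 10.74, 10.42, 10.57 and 10.68 in DM_AngIV replicates 1 to 4, at 10.28, 10.35, 10.13 and 10.16 in DM replicates 1 to 4, and at 10.16, 10.10, 10.44 and 10.51 in NC replicates 1 to 4. DM_AngIV was above DM on every array but overlapped NC. The differences of 0.37 ± 0.12 from DM (SE; limma adjusted p = 0.596) and 0.30 ± 0.12 from NC (0.25) did not pass. Myl2, the ventricular regulatory light chain, had means of 11.82, 11.84 and 11.79 in DM_AngIV, DM and NC. Myl3, the ventricular essential light chain, had means of 11.28, 11.18 and 11.32 in the same order.

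Myom2 encodes myomesin 2, or M-protein, a crosslinker of the M-band. It stood at 10.36, 10.63, 10.73 and 10.78 in DM_AngIV replicates 1 to 4, at 10.29, 10.61, 9.90 and 9.96 in DM replicates 1 to 4, and at 9.56, 9.70, 9.85 and 9.89 in NC replicates 1 to 4. DM replicates 1 and 2 lay in or near the range of DM_AngIV and replicates 3 and 4 just above that of NC. The gene rose 1.83-fold in DM_AngIV over NC, by 0.87 ± 0.15 on the log2 scale (SE; limma adjusted p = 0.0128). The difference was 0.44 ± 0.15 both for DM_AngIV against DM (limma adjusted p = 0.617) and for DM against NC (0.396), and neither passed.

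The related Myom1, the main myomesin of the M-band, had means of 10.17 ± 0.10, 10.04 ± 0.12 and 10.03 ± 0.14 in DM_AngIV, DM and NC (SD, n = 4 each). Its difference between DM_AngIV and NC was 0.13 ± 0.11 (SE; limma adjusted p = 0.616). Ttn, which encodes titin, lay at 10.60 to 10.66 in DM_AngIV, 10.56 to 10.62 in DM and 10.36 to 10.58 in NC. Its DM_AngIV and NC ranges did not overlap, but the difference of 0.17 ± 0.09 did not pass (SE; limma adjusted p = 0.399).

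Tcap encodes telethonin, which caps the ends of titin at the Z-disc. It stood at 9.99, 9.92, 9.63 and 9.52 in DM_AngIV replicates 1 to 4, at 9.32, 9.39, 9.42 and 9.44 in DM replicates 1 to 4, and at 8.68, 8.70, 9.29 and 9.25 in NC replicates 1 to 4. The 3 groups did not overlap, although NC replicates 3 and 4 lay just below the lowest DM array. The gene rose 1.72-fold in DM_AngIV over NC, by 0.78 ± 0.15 on the log2 scale (SE; limma adjusted p = 0.0228). DM_AngIV against DM gave 0.37 ± 0.15 (limma adjusted p = 0.629), and DM against NC gave 0.41 ± 0.15 (0.429).

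The 4 calls depended, to different degrees, on which arrays were in the fit. Without the 5 arrays with Myl7 above background, 0 of the 33 members passed in DM_AngIV against NC, at differences of −1.41 for Myl1, 0.65 for Mylk3, 0.83 for Myom2 and 0.79 for Tcap (limma adjusted p = 0.0501, 0.126, 0.0682 and 0.160), where 0.256% of all genes passed. At an unadjusted p below 0.05 there were 7 members, against 13% of all genes in the same fit. With 1 array left out at a time, Myl1 and Myom2 passed in all 12 fits, Tcap in 8 and Mylk3 in 6. Myl1 and Myom2 alone passed without DM_AngIV replicate 1 or 2 or without NC replicate 1 or 2, and Mylk3 was also lost without DM_AngIV replicate 3 or 4.

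**Figure D2:**
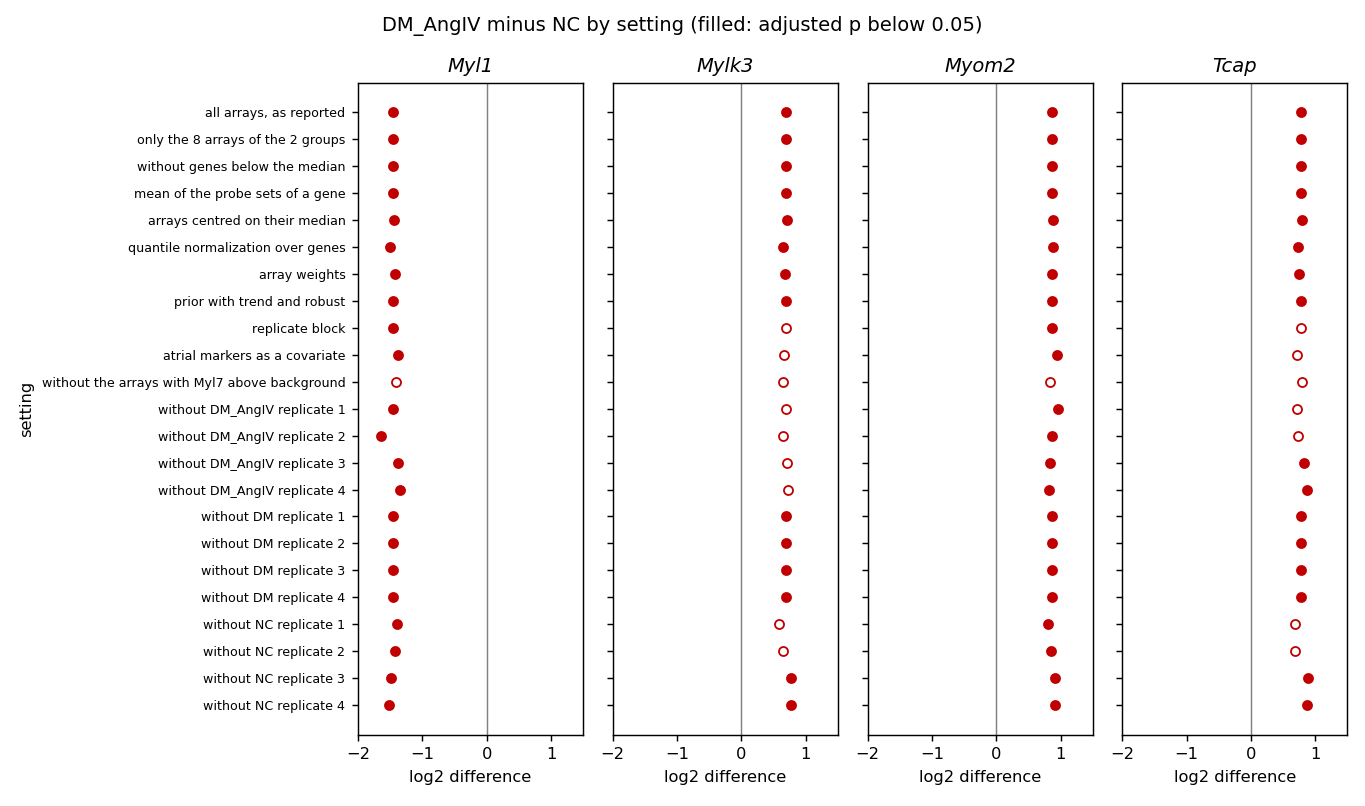
Log2 difference of DM_AngIV minus NC (horizontal axis) for the 4 called members under each setting (rows), with filled circles at a limma adjusted p below 0.05. Every value keeps the direction of the top row, between −1.65 and −1.35 for Myl1, 0.59 and 0.77 for Mylk3, 0.81 and 0.96 for Myom2, and 0.69 and 0.89 for Tcap.

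The other 12 Z-disc members did not pass in any comparison. In DM_AngIV against NC their differences lay between −0.23 and 0.28. At the low end, Smpx, which encodes a small muscle protein of the costamere, was at 9.41, 9.52, 9.56 and 9.68 in DM_AngIV, 9.42, 9.71, 9.72 and 9.77 in DM and 9.74, 9.82, 9.76 and 9.78 in NC, replicates 1 to 4 each. DM_AngIV lay below NC on all arrays, with a difference of −0.23 ± 0.10 (SE; limma adjusted p = 0.322). At the high end, Nebl, the nebulin-like protein nebulette that binds actin at the Z-disc, had means of 9.58, 9.39 and 9.31 in DM_AngIV, DM and NC (limma adjusted p = 0.266 for DM_AngIV against NC).

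Core components of the Z-disc were among those that did not pass. Actn2, the sarcomeric alpha-actinin, averaged 10.63 ± 0.10, 10.56 ± 0.06 and 10.55 ± 0.09 in DM_AngIV, DM and NC (SD, n = 4 each), and its difference between DM_AngIV and NC had a 95% interval from −0.13 to 0.28. Ldb3, also called ZASP or cypher, averaged 10.12, 9.99 and 9.98, and all DM_AngIV arrays were above all DM arrays. For Myoz2, a calcineurin-binding calsarcin, the means were 11.53, 11.36 and 11.42, and for Csrp3, the muscle LIM protein, they were 10.68, 10.57 and 10.69. Flnc, or filamin C, had 5.86, 6.03 and 5.87.

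Of the 7 thin filament members, 0 passed in any comparison (limma). Where 14.6% of all genes had an unadjusted p below 0.05 in DM_AngIV against NC, 1 of the 7 did. That was Lmod2, which encodes leiomodin 2, a protein that lengthens thin filaments at their pointed ends. It stood at 10.18, 10.15, 10.29 and 10.44 in DM_AngIV replicates 1 to 4, at 9.94, 10.31, 9.99 and 10.05 in DM replicates 1 to 4, and at 9.81, 9.86, 9.87 and 9.89 in NC replicates 1 to 4. Both diabetic groups lay above NC on every array and overlapped each other. The difference between DM_AngIV and NC was 0.41 ± 0.11 (SE; limma adjusted p = 0.0831), and it passed without genes below the median level (0.0314) and with a trended robust prior (0.00876).

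Tmod1, tropomodulin 1, which caps the same filament ends, averaged 8.85 ± 0.06 in DM_AngIV, 8.71 ± 0.14 in DM and 8.64 ± 0.17 in NC (SD, n = 4 each; limma adjusted p = 0.412 for DM_AngIV against NC). The filament's main parts were among those that did not pass. Actc1, cardiac actin, averaged 11.41, 11.43 and 11.51 in DM_AngIV, DM and NC, and Tpm1, alpha-tropomyosin, 12.06, 11.97 and 12.01. Tnnt2, cardiac troponin T, had means of 11.77, 11.64 and 11.72, and all DM_AngIV arrays were above all DM arrays. Tnnc1, cardiac troponin C, was at 11.26 to 11.51 in DM_AngIV, 11.18 to 11.25 in DM and 11.25 to 11.44 in NC, with DM below both other groups on every array and no call.

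Des, the intermediate filament desmin that links Z-discs, was at 9.94 to 10.20 in DM_AngIV, 9.83 to 10.07 in DM and 9.69 to 9.94 in NC, and DM_AngIV did not overlap NC (difference 0.24 ± 0.10, SE; limma adjusted p = 0.293). The small heat shock proteins that guard desmin and filamin did not pass. Cryab, alpha-B-crystallin, averaged 11.14, 11.19 and 11.27 in DM_AngIV, DM and NC. Hspb7, the cardiovascular small heat shock protein, averaged 10.45, 10.30 and 10.26.

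**Figure D3:**
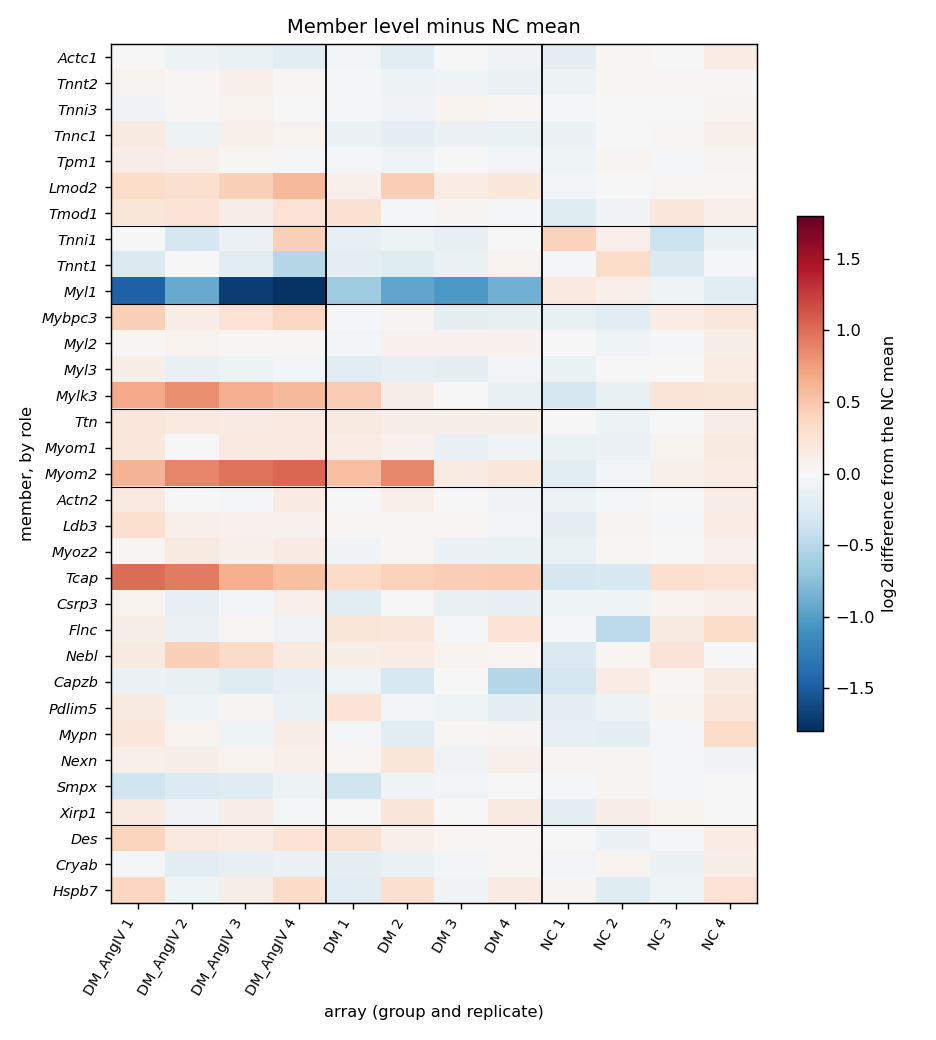
Level of each of the 33 members (rows, grouped by role) on each of the 12 arrays (columns) minus the NC mean of that member, in log2 units, red for higher and blue for lower. Myl1 is blue on all 8 diabetic arrays, Mylk3, Myom2 and Tcap are red on the 4 DM_AngIV arrays, and most other members stay pale.

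Treated and untreated diabetic hearts, compared as DM_AngIV against DM, differed in 0 of the 33 members at an adjusted p below 0.05 (limma; smallest adjusted p 0.469, for Mylk3), and 0% of all genes passed. At an unadjusted p below 0.05 there were 5 members, 4 higher and 1 lower, where 7.48% of all genes passed, 3.98% higher and 3.5% lower. Differences were positive in 25 of 33 members, against 49.8% of all genes, with a median of 0.10 beside −0.00071 over all genes. Over the 9753 genes whose mean level was not below the median, the median difference was 0.024. Ranges did not overlap in 7 members, all higher in DM_AngIV, where 5.01% of all genes did not overlap and 2.81% were higher without overlap. These were Tnnt2, Tnnc1, Mybpc3, Mylk3, Ldb3, Tcap and Nebl, with differences between 0.13 and 0.58.

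Diabetes alone, compared as DM against NC, also changed 0 of the 33 members past the threshold (limma), where 0.0154% of all genes passed. At an unadjusted p below 0.05 there were 3 members, against 8.95% of all genes. Differences were positive in 16 of 33 members, with a median of −0.0050 beside −0.0010 over all genes. In 30 members the difference was smaller than 0.25 in size, and the median half-width of the 95% interval was 0.22. The 3 beyond it were Myl1, Myom2 and Tcap. Ranges did not overlap in 5 members, where 4.54% of all genes did not: Lmod2, Myom2 and Tcap were higher, as were 2.45% of all genes, and Tnnc1 and Myl1 were lower, as were 2.09%.

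**Figure D4:**
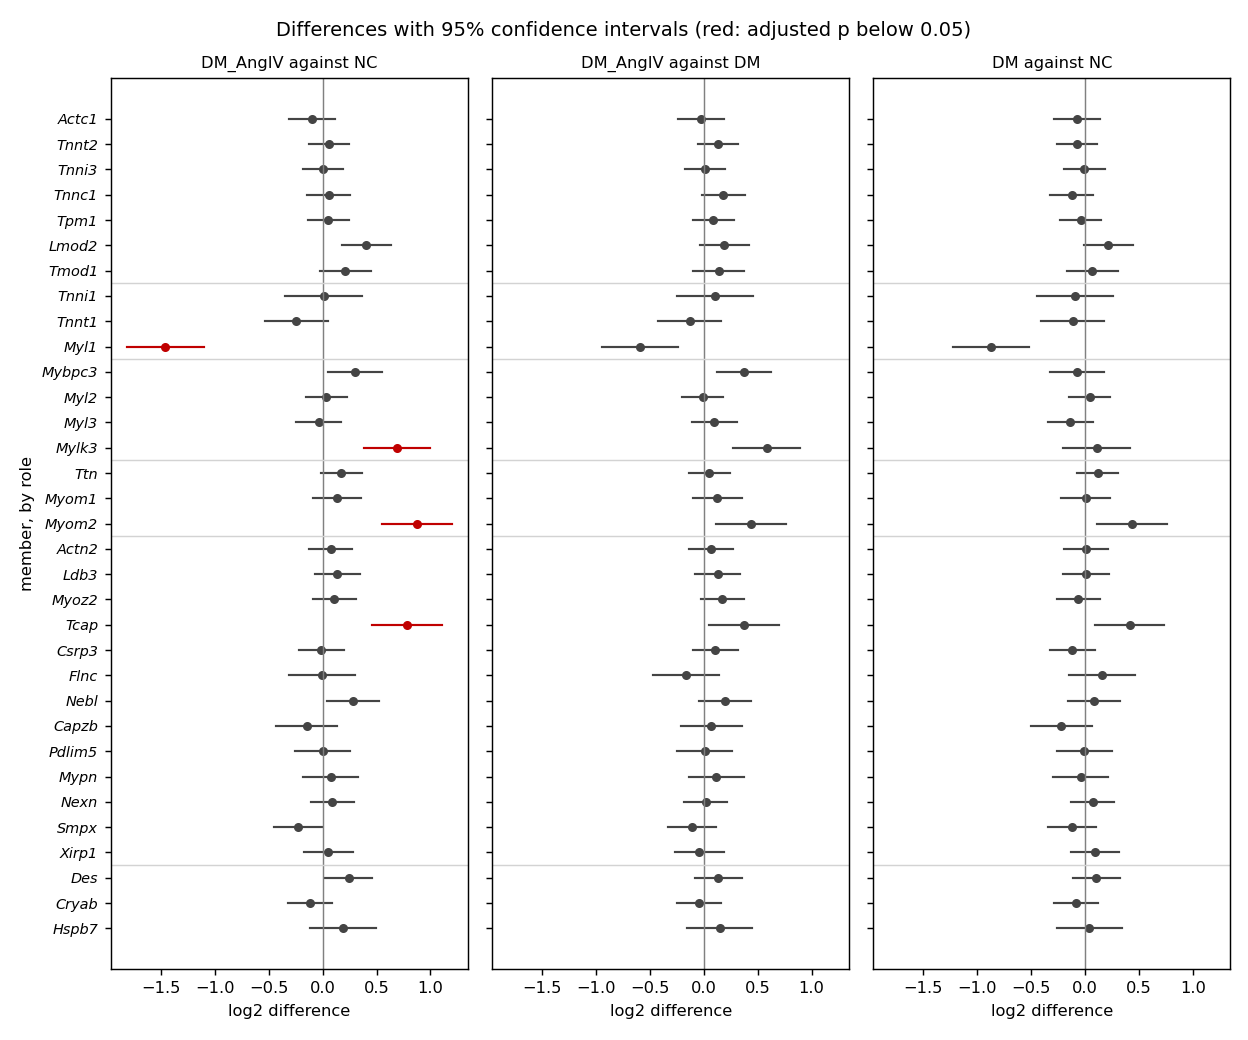
Log2 differences (points) with 95% confidence intervals (lines) for the 33 members, by role, in DM_AngIV against NC, DM_AngIV against DM and DM against NC. Red marks a limma adjusted p below 0.05, reached by Myl1, Mylk3, Myom2 and Tcap in the left panel only, and most other intervals cross 0.

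A wider list of 58 sarcomere, Z-disc and assembly genes outside the set had 55 members on the array. None of the 55 passed in any comparison (limma; smallest adjusted p 0.0675), and at an unadjusted p below 0.05 there were 16 in DM_AngIV against NC, 7 higher and 9 lower, where 14.6% of all genes passed, 8.11% higher and 6.53% lower. In DM_AngIV against DM there were 6, 4 higher and 2 lower, where 7.48% of all genes passed. In DM against NC there were 7, 1 higher and 6 lower, where 8.95% of all genes passed, 4.69% higher and 4.26% lower. In DM_AngIV against NC, 22 of the 55 differences were positive, with a median of −0.067. In DM_AngIV against DM, 26 were positive, against 49.8% of all genes, with a median of −0.0079. In DM against NC, 16 were positive, with a median of −0.062. The positive differences of most of the 33 members in DM_AngIV against DM were thus not seen in this list.

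The slow or beta myosin heavy chain Myh7 was at 10.98, 10.82, 11.44 and 11.57 in DM_AngIV, 10.74, 11.58, 10.31 and 9.84 in DM and 10.27, 9.75, 10.22 and 10.01 in NC, replicates 1 to 4 each. All DM_AngIV arrays were above all NC arrays, with a difference of 1.14 ± 0.28 (SE; limma adjusted p = 0.0675). Trim63, the ubiquitin ligase MuRF1, had 0.64 ± 0.16 in the same comparison (0.0727). Hspb1, the small heat shock protein HSP27, had −0.37 ± 0.10 (0.0798) and lay below both other groups on every DM_AngIV array. Myotilin, a Z-disc protein encoded by Myot, had −1.13 ± 0.31 (0.0922) with overlapping ranges.

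In DM against NC the genes of that list with the smallest p were lower, without passing. Tmod4, a tropomodulin of skeletal muscle, had −0.54 ± 0.15 (SE; limma adjusted p = 0.291). Alpk3, an alpha-kinase of muscle, had −0.48 ± 0.14 (0.308). Klhl40, a stabiliser of thin filament proteins, was not above background on any DM array (0.284), and Hspb3, another small heat shock protein, was close to background, with means of 4.85 in DM and 5.41 in NC (0.340). In DM_AngIV against DM, Hspb1 had −0.40 ± 0.10 (SE; limma adjusted p = 0.469) and Trim63 0.49 ± 0.16 (0.600). Trim54, the ubiquitin ligase MuRF3, had 0.35 ± 0.14 (0.620), and Obsl1, an obscurin-like linker close to background, had 0.49 ± 0.18 (0.620).

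Among markers of other cells, 1 gene of the lists passed in DM_AngIV against NC, where 1.02% of all genes passed. The mean level per list overlapped between DM_AngIV and NC arrays in every list. Over all genes, 48.5% of differences were positive in DM_AngIV against NC and 49.8% in DM_AngIV against DM. In whole myocardium, fewer cells of a type and less RNA per cell cannot be told apart. Of 10 atrial markers, 9 were lower in DM_AngIV than in NC, with a mean level over the list of 5.44 to 5.56 in DM_AngIV, 5.09 to 7.50 in DM and 5.45 to 7.94 in NC. The atrial gene Bmp10 was not above background on any array. Of 8 fibroblast markers, 7 were lower in DM_AngIV than in NC, with mean levels of 6.79 to 7.26 in DM_AngIV, 7.18 to 7.42 in DM and 7.16 to 7.78 in NC, and the collagen gene Col3a1 fell (−1.17 ± 0.20, SE; limma adjusted p = 0.0128). All 9 macrophage markers were higher in DM_AngIV than in NC, at mean levels of 5.57 to 6.17 in DM_AngIV, 5.50 to 6.51 in DM and 5.51 to 5.72 in NC, with 0 passing. All 9 were also higher in DM than in NC, with a median difference of 0.33, beside 0.28 for DM_AngIV against NC. In DM_AngIV against DM, 4 of them were higher and 5 lower. All 10 smooth muscle and pericyte markers were higher in DM_AngIV than in DM, with a median difference of 0.22 and 0 passing, and their mean levels were 6.24 to 6.56 in DM_AngIV, 5.91 to 6.28 in DM and 5.93 to 7.12 in NC. Endothelial markers had mean levels of 7.41 to 7.66 in DM_AngIV, 7.35 to 7.70 in DM and 7.36 to 7.56 in NC. Adipocyte markers had 3.53 to 3.90 in DM_AngIV, 3.68 to 3.81 in DM and 3.59 to 4.35 in NC. Ventricular muscle markers had mean levels of 10.03 ± 0.04 in DM_AngIV, 9.93 ± 0.03 in DM and 9.95 ± 0.05 in NC (SD, n = 4 each). The arrays lay at 9.997 to 10.075 in DM_AngIV, 9.895 to 9.974 in DM and 9.891 to 10.004 in NC. For the mean of this list DM_AngIV was thus above DM on every array and overlapped NC. The list includes Myh7, which had the largest positive difference from NC in it, 1.14. Of its 11 markers, 5 were higher in DM_AngIV than in NC and 6 lower, with a median difference of −0.034. In DM_AngIV against DM, 8 were higher and 3 lower, with a median of 0.062. The part of these cells in the differences of the 4 called members was not tested beyond the values without the arrays with Myl7 signal.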

How the data were processed

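The values are log2 expression values deposited by the authors as 1 table of 29129 probe sets, made with RMA (robust multi-array average), as the submitters' processing notes state. Its version and annotation are not given in the sources used. Of the probe sets, 19572 had 1 gene symbol in the platform annotation, all matched the reference gene table by gene ID, and the highest-mean probe set per gene left 19505 genes.

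One linear model with a mean per group was fitted to all 12 arrays with limma 3.58.1 in R 4.3.3. Two-sided moderated tests were adjusted by Benjamini-Hochberg over all genes, with a threshold of 0.05. P-values measure the spread between these mice. The test was checked on simulated data. Members and gene lists were chosen with earlier results of these data known. Named members are those called, the 4 smallest p per comparison, the 5 largest SDs, 3 skeletal or fetal isoforms and the highest mean per role. From the wider list, the 4 smallest p per comparison are named, and other members are named to complete counts. Same-numbered replicates did not deviate together (correlations across genes from −0.098 to 0.17), so no pairing was used. Promoter windows come from RefSeq. The number of arrays limits the precision. Figures were drawn with matplotlib 3.10.9.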

Additional observations from a re-analysis of the deposited data

Results flagged for a closer look

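In 129 sets of 4 arrays, made of the 33 members and 10 named genes of the wider list in the 3 groups, 1 array stood apart from the other 3 in 7 sets, and chance gives about 1 in 20. In DM_AngIV, replicate 2 was highest for Myl2, at 11.853 against 11.812 to 11.819 on the other arrays, and lowest for Myom1, at 10.02 against 10.21 to 10.22. Replicate 1 was highest for Ldb3, at 10.27 against 10.06 to 10.08. In DM, replicate 1 was lowest for Myl2, at 11.74 against 11.86 to 11.88, and for Smpx, at 9.42 against 9.71 to 9.77, and highest for Ttn, at 10.62 against 10.56 to 10.57. Replicate 2 of DM was lowest for Tnnc1, at 11.18 against 11.24 to 11.25.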

How the results depend on the processing

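In DM_AngIV against NC, 4 members passed. With the replicate block 2 passed, with the atrial covariate 2, and 0 once the arrays with Myl7 above background were left out. The first 2 counts were Myl1 and Myom2, and the block has fewer residual degrees of freedom and the omission fewer arrays. The highest count over the settings, which include an adjusted p threshold of 0.1, was 5. Lmod2 passed without genes below the median and with the trended robust prior. Leaving out 1 array at a time gave 2 to 4. In DM against NC, 0 passed, but 1, Myl1, without genes below the median and with the trended robust prior, and 0 to 1 with 1 array left out. No member passed in DM_AngIV against DM under any setting run. Over all genes the count in DM_AngIV against NC was 198, against 492 without genes below the median, 514 with the trended robust prior, 115 with the replicate block, 50 without the arrays with Myl7 and 81 to 302 with 1 array left out. In DM_AngIV against DM it was 0, and 0 to 5 with 1 array left out. In DM against NC it was 3, against 20 and 28 under the first pair of these, and 2 to 30 with 1 array left out. The median difference of the members in DM against NC, −0.0050, had no stable sign, at −0.063 to 0.0022 under other settings and −0.037 to 0.053 over single omissions. Among the 13 members whose differences were recomputed, directions turned for values that did not pass: Mylk3 in DM against NC without the arrays with Myl7 (−0.041), with −0.0068 to 0.19 over single omissions, Myl2 in DM_AngIV against NC with quantile normalization (−0.017) and in DM_AngIV against DM (−0.044 to 0.0013 over single omissions), and Tnni1, below background, over single omissions (−0.22 to 0.043 in DM against NC, −0.037 to 0.20 in DM_AngIV against DM and −0.13 to 0.14 in DM_AngIV against NC). What lay behind these changes was not tested.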
